A study of Mus musculus with 6 samples.

Results

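MHC class I presentation was followed through 10 genes, H2-K1, H2-D1, B2m, Tap1, Tap2, Tapbp, Nlrc5, Psmb8, Psmb9 and Psmb10. They were chosen by name for their place in the pathway, with earlier results of these data known. All 10 of these were found among the 36083 genes of the deposited table, and all 10 passed the filter on low values, a mean value over the 6 libraries that reached 1. RNA-seq was done on lineage-negative (Lin-) cells of blast crisis chronic myeloid leukemia (bcCML), the immature fraction of a leukemia that was made in mice by 2 oncogenes, BCR-ABL and NUP98-HOXA9. Both groups started from KLS cells (c-Kit+, lineage-, Sca1+ stem and progenitor cells) of adult mice of B6 background. These cells were infected with both oncogenes, sorted for cells carrying both, and transplanted. The labels give NSG recipients, whereas the study's general methods name irradiated mice of B6 background for this model. The 3 libraries numbered 1 to 3 and labelled WT came from leukemia of wild-type donors, and 3 libraries labelled Sdc1 KO came from leukemia of germline Sdc1-/- donors, which should lack syndecan-1, a cell surface heparan sulfate proteoglycan. Mice of both groups were killed together, and Lin- cells were sorted from spleen. NSG mice lack T, B and NK cells of their own but keep myeloid and red cells. The gating that the study describes for primary bcCML takes cells positive for the surface tags of both oncogene vectors, a step that removes host cells, and then Lin- cells, with antibodies to granulocyte and erythroid antigens in the lineage set. Nothing in the labels says whether the libraries of a group came from separate mice. A figure legend of the study gives 3 technical replicates for RNA-seq of Lin- WT bcCML, without saying whether these are the same libraries. The p-values below thus measure only the spread between these libraries, which may be technical.

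MHC class I molecules show peptides from inside the cell to CD8+ T cells. Cytosolic proteins are cut by the proteasome, in which interferon can replace the constitutive catalytic subunits by immunosubunits. The TAP transporter carries the peptides into the endoplasmic reticulum, where tapasin holds an empty heavy chain and beta-2 microglobulin beside the transporter until a peptide binds. Transcription of several genes of the pathway is driven together by NLRC5, which has no DNA-binding domain of its own and acts through factors bound at class I promoters. Low class I expression is known from many leukemias and is one of the ways in which tumor cells can avoid T cells.

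The sum of values per library ran from 944973 to 1058263 and was higher in each WT-labelled library, and depth is unknown because the table holds no counts. Sdc1 itself was higher in KO-labelled libraries (3.85, 3.80 and 4.12) than in WT-labelled ones (1.75, 1.21 and 1.51, adjusted p = 0.00012, limma), the opposite of a loss of Sdc1 RNA. The paper describes an allele altered at the signal peptide, which keeps mature protein off the cell surface. It also reports checks of the deletion by PCR on genomic DNA and by immunofluorescence. Whether this allele still gives Sdc1 RNA was not tested, and the deposited values do not show which stretch of the transcript the reads covered. The RNA level alone thus does not settle whether the labels are right. Groups are therefore named by their labels throughout, as WT-labelled and KO-labelled (Sdc1 KO) libraries. By the limma test described below, 31.3% of all genes tested were lower and 29.3% higher in KO-labelled libraries, beside which the marker counts stand. Summed neutrophil markers (S100a8, S100a9, Ltf, Camp, Ngp and Ly6g, 6 of 6 lower by the test in KO-labelled libraries) were 12529 to 13476 in WT-labelled libraries and 4553 to 4692 in KO-labelled ones. Summed erythroid markers (6 of 6 lower) were 9430 to 10126 and 5191 to 5593, and summed macrophage markers (5 of 6 tested lower, Adgre1 the most abundant) 35.8 to 38.0 and 16.0 to 18.7. T cell markers were below 1 in every library, and of 5 NK cell markers Ncr1 and Eomes were below 1 in every library, Klrb1c had means of 7.03 and 6.37, Gzma fell from 1.6 to 0.405 and Nkg7 fell from 340 to 286. Among markers of B cells, dendritic cells, endothelium and stroma, 5 of 6, 5 of 6, 3 of 4 and 3 of 5 were below 1 in every library. Of the rest, Tie1 (endothelium, means of 0.935 and 4.24) and Col1a2 (stroma, 18.8 and 23.2) were higher by the test in KO-labelled libraries. Pdgfrb (stroma, 7.31 and 4.18) and Zbtb46 (dendritic cells, 1.73 and 1.05) were lower, and Cd79b (B cells, 2.29 and 2.12) was neither. Of 8 markers of the immature leukemia, 4 rose and 2 fell by the test from WT-labelled to KO-labelled libraries. Those that rose were Meis1 (means of 13.1 and 28.6), Msi2 (33.5 and 39.8), Hoxa9 (84.8 and 96.5) and Kit (12.8 and 14.7). Those that fell were Cd34 (47.4 and 39.9) and Mpo, a myeloid granule enzyme and the most abundant of the 8 (322 and 245). Genes of the Y chromosome summed to 0.276 to 0.308 in WT-labelled libraries and to 68.1 to 78.4 in KO-labelled ones, so the sex of the cells and the genotype cannot be told apart. In bulk RNA, fewer cells of a type and less RNA per cell cannot be told apart. The part of these markers in the values below was not tested, beyond a rescaling. It set each library to a fixed sum over the genes outside the neutrophil and erythroid lists. Its effect is given for the class I genes whose call or sign it changed, and for B2m, Tap1 and Psmb8, whose calls came near the threshold.

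Between the groups, 2 of the 10 class I genes were called higher in KO-labelled libraries (Nlrc5 and Psmb10), 5 were called lower (H2-D1, B2m, Tap1, Tapbp and Psmb8), and 3 were not called (H2-K1, Tap2 and Psmb9). A call here is an adjusted p below 0.05 in limma, fitted on log2(value + 1) over 12155 genes. Since 60.7% of these genes were called, 29.3% higher and 31.3% lower, 7 called genes of 10 is near the background, and no count over the 10 genes sets them apart. Over the 10 genes the log2 fold change, KO-labelled minus WT-labelled libraries, had a median of -0.155, against -0.0097 over all genes tested. The values of 8 of the 10 did not overlap between groups, and the same was true of 66.7% of all genes tested. Scaling mattered for the small changes. With each library set to a sum of 1000000 the median of all genes moved up by 0.132, the calls over all genes went from 3564 higher and 3810 lower to 5286 higher and 2380 lower, and the class I genes called became 4 higher and 1 lower. With quantile normalization they were 4 higher and 4 lower. H2-D1 was lower and Psmb10 higher in all 17 settings run, and Nlrc5 was higher in the 16 settings that tested it.

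**Figure D1:**
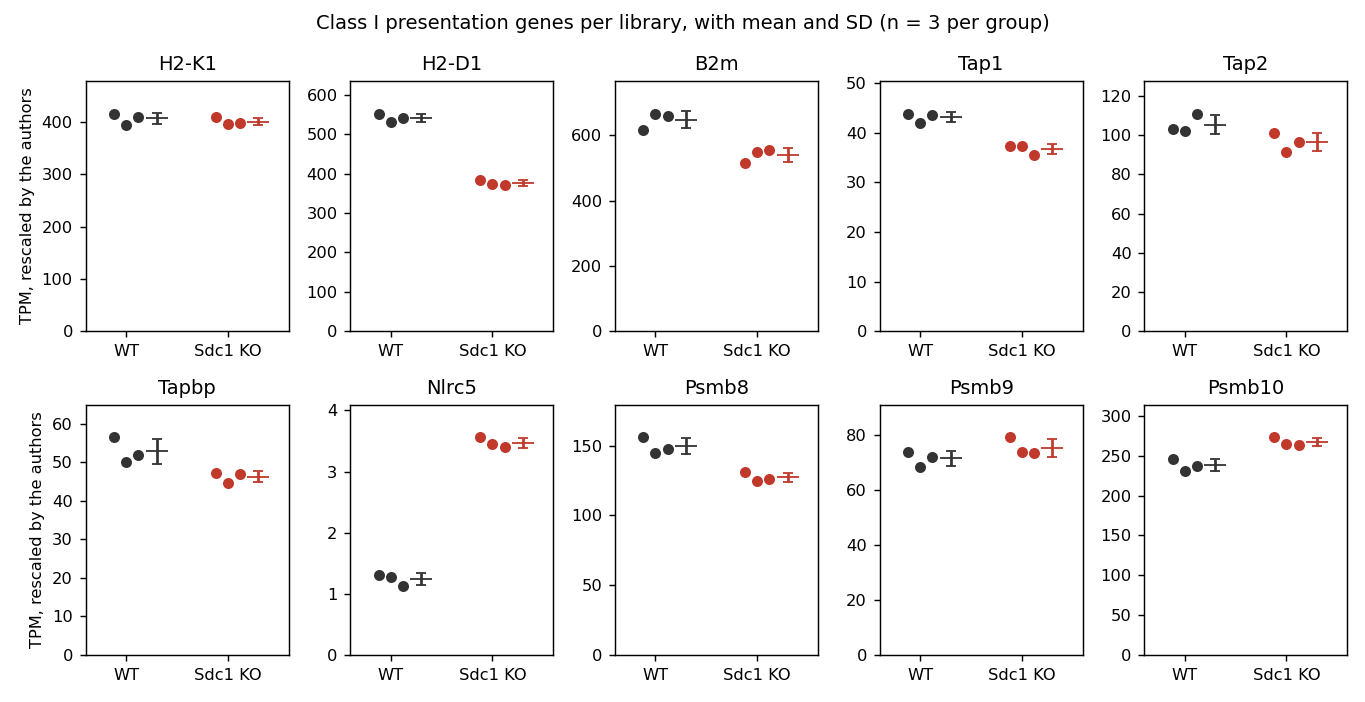
Deposited value (TPM, rescaled by the authors) of each of the 10 class I presentation genes in every library, with points for libraries 1 to 3 of each label from left to right and a bar for mean and SD; each axis starts at 0. Nlrc5 is at 1.13 to 1.31 in WT-labelled libraries and 3.40 to 3.56 in KO-labelled ones, H2-D1 is at 532 to 552 and then at 372 to 384, and H2-K1 overlaps between groups.

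TPM is scaled by transcript length, so levels can be set beside each other across genes. The order by mean value in WT-labelled libraries was B2m, H2-D1, H2-K1, Psmb10, Psmb8, Tap2, Psmb9, Tapbp, Tap1 and Nlrc5. In the libraries labelled Sdc1 KO the order was the same except that H2-K1 stood above H2-D1. The ranges of neighbouring genes in the order did not overlap in either group. B2m, H2-D1 and H2-K1 lay between the 97.1 and 98.2 percentiles of all genes tested in both groups, the antigen processing genes between the 72.9 and 96.1 percentiles, and Nlrc5 at the 3.8 percentile in WT-labelled libraries and the 19.9 percentile in KO-labelled ones. The abundant and the rare members thus differed by orders of magnitude.

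The heavy chains H2-K1 and H2-D1 are the classical, polymorphic chains that hold the peptide. H2-K1 (chr17:33996017-34000347, minus strand, GRCm38) and H2-D1 (chr17:35262730-35267499, plus strand) lie in the MHC on chromosome 17. H2-K1 had values of 416, 395 and 410 in WT-labelled libraries and 409, 396 and 398 in KO-labelled ones. The groups overlapped, with means of 407 ± 10.8 and 401 ± 7.07 (SD, n = 3). The log2 fold change of H2-K1 was -0.02 (SE 0.031, 95% interval -0.10 to 0.05, adjusted p = 0.59, limma), and it was positive under a sum of 1000000 (0.13, adjusted p = 0.0078), under quantile normalization (0.10, adjusted p = 0.034) and under the sum without neutrophil and erythroid markers (0.11, adjusted p = 0.014). Relative to the median of all genes, the H2-K1 change was -0.01 with the authors' scaling, 0.01 with the sum of 1000000 and 0.09 with quantile normalization.

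H2-D1 had values of 552, 532 and 540 in WT-labelled libraries and 384, 373 and 372 in KO-labelled ones. Every KO-labelled library was below every WT-labelled library, and the spread within a group was small beside the gap. Its mean fell 1.44-fold, from 541 ± 9.95 to 376 ± 7.08 (SD, n = 3), with a log2 fold change of -0.52 (SE 0.029, adjusted p = 1.1e-05, limma). Over the 17 settings the log2 fold change of H2-D1 stayed between -0.54 and -0.38. The change of H2-D1 was larger in size than that of 81.2% of all genes tested, so it was well above the typical difference between these libraries but not extreme.

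The unequal behaviour of the 2 heavy chains can be read within each library, where scaling between libraries plays no part. The ratio of H2-D1 to H2-K1 was 1.33, 1.35 and 1.32 in WT-labelled libraries and 0.94, 0.941 and 0.935 in KO-labelled ones. H2-D1 was thus the more abundant heavy chain in each WT-labelled library and the less abundant in each KO-labelled one. The log2 difference of this ratio was -0.50 (two-sided exact permutation p = 0.1, which is the lowest that 3 libraries against 3 allow). This ratio, and the others below apart from the immunosubunits to constitutive subunits and the heavy chains to B2m, was chosen after its values were seen. H2-K1 and H2-D1 are close in sequence. Of all 31-base words in the annotated transcripts of each gene, 22.8% for H2-K1 and 26.9% for H2-D1 also occur in another gene, 358 of them in both, so the division of reads between these chains rests partly on how kallisto shared out ambiguous reads.

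The start regions of the 2 heavy chain genes are shown because these chains differed in change while their promoters are near copies over the aligned stretch given below. Each window runs from 250 bases before to 50 bases after the transcription start in RefSeq (GRCm38.p6), 5′ to 3′ on the strand of the gene. Capitals mark matches, on either strand, to the interferon regulatory factor (IRF) recognition core AANNGAAA and to the NF-kappa B site, searched by its consensus.
H2-K1, chr17:34000298-34000597, minus strand: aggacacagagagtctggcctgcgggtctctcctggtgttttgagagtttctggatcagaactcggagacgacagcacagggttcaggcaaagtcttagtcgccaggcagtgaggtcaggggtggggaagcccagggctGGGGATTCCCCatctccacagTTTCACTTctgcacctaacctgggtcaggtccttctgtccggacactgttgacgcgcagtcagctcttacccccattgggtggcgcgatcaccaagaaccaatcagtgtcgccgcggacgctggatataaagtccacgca
H2-D1, chr17:35262844-35263143, plus strand: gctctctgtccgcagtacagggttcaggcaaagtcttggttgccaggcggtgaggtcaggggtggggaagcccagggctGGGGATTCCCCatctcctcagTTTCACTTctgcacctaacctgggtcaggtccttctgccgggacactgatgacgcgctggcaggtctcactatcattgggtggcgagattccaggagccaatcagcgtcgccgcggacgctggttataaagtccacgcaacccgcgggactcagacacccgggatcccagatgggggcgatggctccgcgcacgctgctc
A local alignment, which keeps only the best-matching stretch, covered -178 to 50 of H2-K1 and -238 to -12 of H2-D1. In its 228 aligned columns the windows were identical at 206 (90.4%), with 1 gap, and the rest of each window was not aligned. Both hold the same NF-kappa B site, at -111 to -102 in H2-K1 and -171 to -162 in H2-D1 from the annotated start, matched in 2 overlapping registers and on both strands. An IRF core follows on the minus strand at -90 to -83 and at -150 to -143. The NF-kappa B site was found in 4.51% and the IRF core in 23.9% of 32851 promoter windows of this length. CCAAT boxes (letters CCAAT, 37.4% of windows) and the core of the cAMP response element (TGACG, 20.8%) were also in both windows. The motifs found in H2-K1 and in H2-D1 were the same and in the same order, and a match is only a description of the letters. RefSeq also gives H2-K1 another start 14 bases further on, whose window holds the same matches.

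B2m encodes beta-2 microglobulin, the invariant light chain without which heavy chains do not reach the surface. It lies on chromosome 2 (chr2:122147686-122153083, plus strand) and was the most abundant member in both groups. B2m had values of 617, 666 and 658 in WT-labelled libraries and 515, 549 and 556 in KO-labelled ones, with no overlap. Its mean fell from 647 ± 26.4 to 540 ± 21.9 (SD, n = 3), with a log2 fold change of -0.26 (SE 0.044, adjusted p = 0.0019, limma), a call that was lost under a sum of 1000000 (-0.11, adjusted p = 0.071) and quantile normalization (-0.13, adjusted p = 0.068). With the sum without neutrophil and erythroid markers B2m was still called lower (-0.13, adjusted p = 0.046, limma). None of its 31-base words occurs in an annotated transcript of another gene. The annotation places Patl2 over the whole of B2m on the opposite strand, at values of 2.06, 1.96 and 1.96 in WT-labelled libraries and 0.639, 0.596 and 0.614 in KO-labelled ones. The kit marks strand, but the strand setting of the quantification is not given in the sources used here. The start region of B2m is shown beside those of the heavy chains because B2m pairs with either heavy chain.
B2m, chr2:122147437-122147736, plus strand: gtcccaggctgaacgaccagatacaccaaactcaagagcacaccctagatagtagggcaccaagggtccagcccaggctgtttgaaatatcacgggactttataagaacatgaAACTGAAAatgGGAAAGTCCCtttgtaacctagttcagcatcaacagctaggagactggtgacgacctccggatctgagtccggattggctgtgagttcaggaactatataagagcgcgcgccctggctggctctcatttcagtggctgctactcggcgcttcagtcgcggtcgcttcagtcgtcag
The B2m window holds both elements in the opposite order to the heavy chains, the IRF core at -137 to -130 and the NF-kappa B site on the minus strand at -126 to -117. Its IRF core is part of a longer interferon-stimulated response element core, GAAANNGAAA at -139 to -130, which was found in 3.44% of windows and in neither heavy chain window.

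Summed heavy chains, H2-K1 plus H2-D1, were 968, 927 and 949 in WT-labelled libraries and 793, 768 and 769 in KO-labelled ones. Divided by B2m in the same library, they gave 1.57, 1.39 and 1.44 in WT-labelled libraries and 1.54, 1.40 and 1.38 in KO-labelled ones. These ratios overlapped, at 1.47 ± 0.0912 and 1.44 ± 0.0861 (SD, n = 3), with a log2 difference of -0.03 (two-sided exact permutation p = 0.6). With all H2 class I genes listed in the sum, the ratio was 1.82 ± 0.112 and 1.86 ± 0.112 (SD, n = 3; two-sided exact permutation p = 0.6).

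Tap1 and Tap2 encode the 2 chains of the peptide transporter, and Tapbp encodes tapasin, its chaperone. Tap1 (chr17:34187553-34197225, plus strand) had values of 43.8, 42.0 and 43.6 in WT-labelled libraries and 37.3, 37.3 and 35.5 in KO-labelled ones. The groups were apart, with means of 43.1 ± 0.965 and 36.7 ± 1.00 (SD, n = 3). Tap1 fell by 0.23 on the log2 scale (SE 0.036, adjusted p = 0.0014, limma), and the call was lost with a sum of 1000000 (-0.08, adjusted p = 0.069). It was kept, with a smaller change, under the sum without neutrophil and erythroid markers (-0.10, adjusted p = 0.039, limma).

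Tap2 (chr17:34203527-34216321, plus strand) had values of 103, 102 and 111 in WT-labelled libraries and 101, 91.6 and 96.6 in KO-labelled ones. All 3 libraries labelled Sdc1 KO were below all 3 labelled WT, but by no more than the spread within a group. The log2 fold change of Tap2 was -0.13 (SE 0.051, 95% interval -0.25 to -0.004, adjusted p = 0.07, limma) and was positive under a sum of 1000000 (0.02, adjusted p = 0.74) and under the sum without neutrophil and erythroid markers (0.01, adjusted p = 0.93). Without Sdc1 KO replicate 1 Tap2 was called lower (-0.16, adjusted p = 0.04). The level of Tap2 was above that of Tap1 in every library, at means of 105 and 43.1 in WT-labelled libraries.

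Tapbp (chr17:33915899-33929292, plus strand) had values of 56.5, 50 and 52.0 in WT-labelled libraries and 47.3, 44.7 and 47.0 in KO-labelled ones. The groups did not overlap, although the gap between them was smaller than the spread among WT-labelled libraries. Tapbp fell by 0.19 on the log2 scale (SE 0.052, adjusted p = 0.018, limma), from 52.9 ± 3.35 to 46.3 ± 1.44 (SD, n = 3). The Tapbp call was lost under a sum of 1000000 (-0.04, adjusted p = 0.52), under the sum without neutrophil and erythroid markers (adjusted p = 0.37) and without Sdc1 KO replicate 2 (adjusted p = 0.064). Shared words made up 26.9% of those of Tapbp, most of them shared with Gm19412, annotated antisense to it.

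Psmb8, Psmb9 and Psmb10 encode the catalytic immunosubunits LMP7, LMP2 and MECL1, which replace the constitutive subunits encoded by Psmb5, Psmb6 and Psmb7 in that order. The 3 did not move together. Psmb8 (chr17:34197721-34201454, plus strand) had values of 156, 145 and 148 in WT-labelled libraries and 131, 125 and 126 in KO-labelled ones, with no overlap. Psmb8 fell from 150 ± 5.47 to 128 ± 3.18 (SD, n = 3), by 0.23 on the log2 scale (SE 0.037, adjusted p = 0.0016, limma), a call lost with a sum of 1000000 (-0.08, adjusted p = 0.081). The sum without neutrophil and erythroid markers kept the call with a smaller change (-0.10, adjusted p = 0.046, limma).

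Psmb9 (chr17:34181987-34187764, minus strand) had values of 74.0, 68.4 and 72.2 in WT-labelled libraries and 79.2, 73.7 and 73.4 in KO-labelled ones. The groups overlapped. Its log2 fold change was 0.08 (SE 0.045, 95% interval -0.03 to 0.18, adjusted p = 0.19, limma), and Psmb9 was called higher with a sum of 1000000 (0.22, adjusted p = 0.0033), with the sum without neutrophil and erythroid markers (0.21, adjusted p = 0.0048) and with quantile normalization (0.15, adjusted p = 0.031).

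Psmb10 lies outside the MHC (chr8:105935735-105938444, minus strand). Its values were 246, 231 and 237 in WT-labelled libraries and 273, 265 and 263 in KO-labelled ones, so that the groups did not overlap. Psmb10 rose from 238 ± 7.46 to 267 ± 5.33 (SD, n = 3), with a log2 fold change of 0.17 (SE 0.034, adjusted p = 0.0045, limma) and a range of 0.15 to 0.31 over the settings. It was the most abundant immunosubunit in every library.

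Within each library, the sum of the immunosubunits over the sum of their constitutive counterparts was 0.591, 0.579 and 0.595 in WT-labelled libraries and 0.636, 0.628 and 0.631 in KO-labelled ones. The groups were apart, at 0.588 ± 0.00817 and 0.632 ± 0.00396 (SD, n = 3), with a log2 difference of 0.10 (two-sided exact permutation p = 0.1). Taken subunit by subunit, the direction differed. Psmb10 over Psmb7 was 1.12, 1.02 and 1.16 in WT-labelled libraries and 1.37, 1.32 and 1.31 in KO-labelled ones. Psmb8 over Psmb5 was 0.459, 0.480 and 0.459 and then 0.421, 0.431 and 0.437, thus lower in each KO-labelled library. Psmb9 over Psmb6 was 0.301, 0.286 and 0.297 and then 0.319, 0.299 and 0.301, with overlap. The ratio of Psmb10 to Psmb8, both immunosubunits, was 1.59 ± 0.0114 in WT-labelled libraries and 2.09 ± 0.0166 in KO-labelled ones (SD, n = 3; two-sided exact permutation p = 0.1).

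Psmb9 and Tap1 are a gene pair read in opposite directions from a common start region. Their RefSeq starts are 226 bases apart, their windows share 275 bases, and their annotated transcripts overlap by 212 bases. The window is shown as the start region of both genes, on the Tap1 strand, and it holds neither of the motifs marked in capitals above.
Tap1, chr17:34187306-34187605, plus strand: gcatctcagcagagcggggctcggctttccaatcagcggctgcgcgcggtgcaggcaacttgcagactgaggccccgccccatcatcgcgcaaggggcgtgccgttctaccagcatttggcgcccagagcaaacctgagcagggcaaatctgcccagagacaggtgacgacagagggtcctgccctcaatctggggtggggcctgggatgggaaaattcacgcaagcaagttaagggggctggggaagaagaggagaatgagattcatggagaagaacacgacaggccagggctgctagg
A CCAAT box at -222 to -218 and a TGACG at -86 to -82 from the Tap1 start were the matches found in the Tap1 window. The ratio of Psmb9 to Tap1 was 1.69, 1.63 and 1.66 in WT-labelled libraries and 2.13, 1.98 and 2.07 in KO-labelled ones. Each library labelled Sdc1 KO was above each labelled WT, with a log2 difference of 0.31 (two-sided exact permutation p = 0.1). Among the 8 members with a RefSeq window, the gamma-activated site TTCNNNGAA, found in 8.30% of windows, occurred only in that of Psmb8, at -97 to -89. Tap2 and Nlrc5 were the members without a window.

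**Figure D2:**
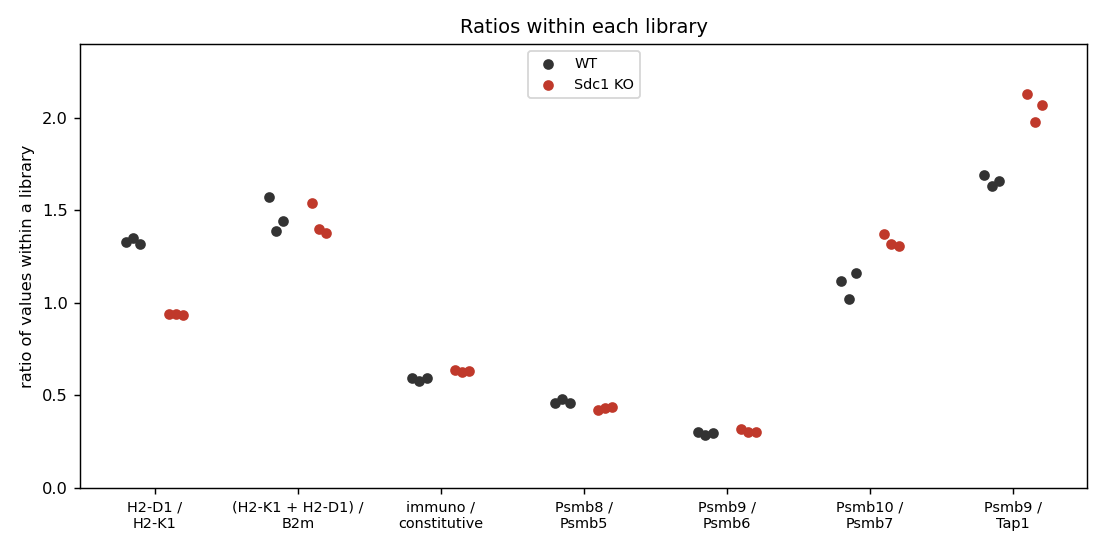
Ratio of values within a library (vertical axis, no unit) for 7 gene pairs or sums, with 1 point for each of 3 libraries labelled WT (dark) and 3 labelled Sdc1 KO (red); immuno and constitutive stand for the sums of Psmb8, Psmb9 and Psmb10 and of Psmb5, Psmb6 and Psmb7. H2-D1 over H2-K1 goes from 1.33 ± 0.0162 to 0.939 ± 0.00327 (SD, n = 3), while the heavy chains over B2m overlap between groups.

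Nlrc5 is the class I transactivator. It lies on chromosome 8 (chr8:94434356-94527272, plus strand) and had values of 1.31, 1.28 and 1.13 in WT-labelled libraries and 3.56, 3.45 and 3.40 in KO-labelled ones. No library of either group came near the range of the other. The mean rose 2.8-fold, from 1.24 ± 0.0955 to 3.47 ± 0.0778 (SD, n = 3), and the log2 fold change was 1.00 (SE 0.066, adjusted p = 2.3e-05, limma). The pseudocount of 1 is near the level of Nlrc5 and shrinks this change, which was 1.19 with a pseudocount of 0.5 and 1.42 with 0.1. With a minimum mean of 5 the gene is not tested. Of the 12155 genes tested, 239 rose at least as much as Nlrc5 and 614 changed at least as much in size. The largest change among the members was thus that of the least abundant one, and it ran opposite to that of H2-D1, B2m, Tap1, Tapbp and Psmb8.

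The genes most like Nlrc5 across the 6 libraries were Pcnx3 (Pearson r = 0.9998), Mcm10 (0.9997), Gon4l (0.9996), Mettl17 (0.9996) and Trps1 (0.9995). These values describe a split into 2 groups that all 6 libraries share, and 522 genes (4.29% of those tested) had an r of at least 0.99 to Nlrc5. None of the other 9 class I genes was among the 5. With only 5 places among 12155 genes tested, this cannot decide whether they follow Nlrc5.

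**Figure D3:**
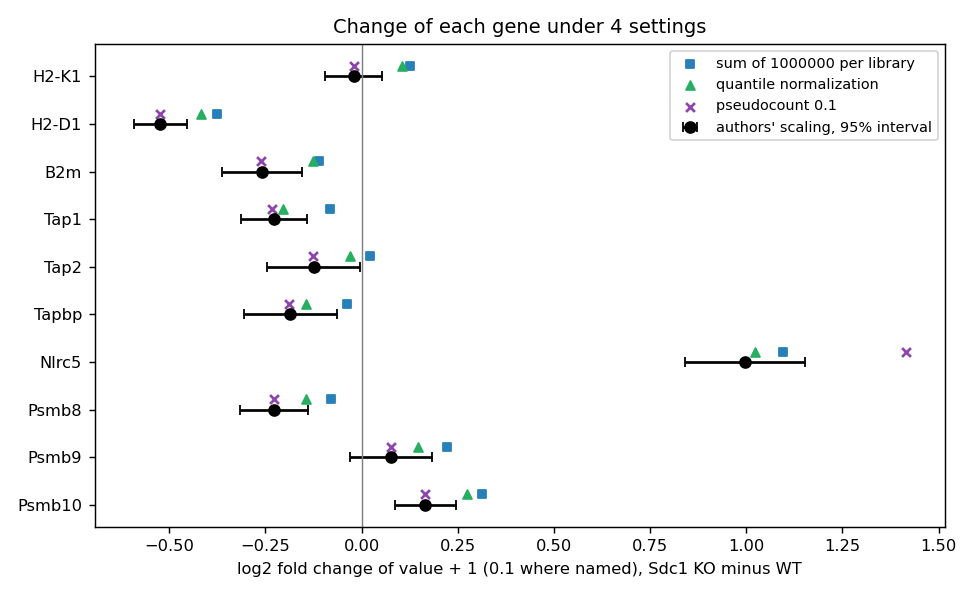
Log2 fold change of each of the 10 genes (horizontal axis, KO-labelled minus WT-labelled libraries), with black points and 95% intervals for the authors' scaling and coloured marks for a sum of 1000000 per library, quantile normalization and a pseudocount of 0.1. The marks for H2-K1, Tap2 and the other small changes shift to the right with the sum scaling, while H2-D1 stays below 0 and Psmb10 and Nlrc5 above 0.

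The other genes of the pathway were taken from lists, and of 64 listed genes 58 were tested, with 14 called higher, 21 lower and 23 not called and a median log2 fold change of -0.04. These counts are near the 29.3% higher and 31.3% lower over all genes tested, and they were 26 higher and 12 lower with a sum of 1000000. Constitutive catalytic subunits gave no call with the authors' scaling. Psmb5, Psmb6 and Psmb7 had means of 321, 243 and 216 in WT-labelled libraries and 297, 246 and 201 in KO-labelled ones, and the changes of Psmb5 and Psmb7 turned from negative to positive with a sum of 1000000. Psmb6 was called higher with a sum of 1000000 (0.17, adjusted p = 0.00091, limma), with the sum without neutrophil and erythroid markers (adjusted p = 0.0015) and with quantile normalization (adjusted p = 0.0064). Psmb5 was called lower without WT replicate 2 (adjusted p = 0.033, limma), as was Psmb7 without WT replicate 3 (adjusted p = 0.01, limma). Among 11 structural subunits of the proteasome core, 7 were called lower and none higher with the authors' scaling, against 31.3% lower over all genes tested, but 3 lower and 3 higher with a sum of 1000000 or with the sum without neutrophil and erythroid markers, and 4 lower and none higher with quantile normalization. Psma6 (461 to 347, log2 fold change -0.41, adjusted p = 0.00015, limma) and Psmb3 (542 to 414, -0.39) changed most, followed by Psmb1 (-0.26) and Psma2 (-0.22, not called with a sum of 1000000, adjusted p = 0.13, or with the sum without neutrophil and erythroid markers, adjusted p = 0.079). Of 5 activator and assembly genes, Psme3, a subunit of the nuclear activator, was called lower (-0.20), a call lost with a sum of 1000000 (adjusted p = 0.29, limma, where 3 of the 5 genes were called higher) and with the sum without neutrophil and erythroid markers (adjusted p = 0.18). Psme1 and Psme2, the interferon-inducible activator that works with the immunosubunits, had means of 466 and 456 and of 350 and 350 and were not called with the authors' scaling.

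Of 6 genes of heavy chain folding, peptide loading and trimming, Canx alone was called with the authors' scaling, beside 60.7% called over all genes tested. Under both sums and quantile normalization 3 of the 6 were called higher. Canx, encoding calnexin, which holds newly made heavy chains, rose from 252, 252 and 243 to 287, 289 and 290 (log2 fold change 0.21, SE 0.028, adjusted p = 0.00058, limma). Erap1, the peptidase that trims peptides in the endoplasmic reticulum, had means of 48.5 and 41.0 (adjusted p = 0.061, limma). Pdia3, Tapbpl and Hspa5 were not called with the authors' scaling, nor was Calr, which was called higher with a sum of 1000000 (0.20, adjusted p = 0.0014, limma), with the sum without neutrophil and erythroid markers (adjusted p = 0.0022) and with quantile normalization (adjusted p = 0.022).

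Nonclassical class I genes were split. Of 11 tested, 6 were called higher and 4 lower, beside 29.3% higher and 31.3% lower over all genes tested. Under both sums 7 were called higher and 3 lower, and 4 more listed genes lay below 1 in every library. H2-Q7 rose, with values of 19.4, 17.4 and 18.0 in WT-labelled libraries and 27.4, 28.2 and 27 in KO-labelled ones (log2 fold change 0.57, adjusted p = 7.2e-05, limma). Cd1d1, which presents lipids to NKT cells, rose from 5.77 to 8.72 (0.53), and H2-T24 from 2.19 to 3.28 (0.43). H2-Q10 fell from 2.15 to 1.12 (-0.57, and -0.88 with a pseudocount of 0.1), and 973 of the 31-base words of H2-Q7 also occur in H2-Q10. H2-T23, which encodes Qa-1 and is read by the NKG2A receptor, fell from 130 to 107 (-0.28, adjusted p = 0.00067, limma). Together H2-Q4, H2-Q6 and H2-Q7 summed to 61.8, 58.9 and 59.3 in WT-labelled libraries and 78.5, 78.6 and 77.8 in KO-labelled ones, a difference opposite to that of H2-D1 at a far lower level. H2-Q7 shared 39.2%, H2-Q6 51.8% and H2-Q4 53.0% of its 31-base words with other genes, so the values of these genes are uncertain.

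Factors that bind class I promoters, on which NLRC5 acts, gave 3 calls higher and 3 lower among 10, a share near the 60.7% called over all genes tested, and 5 higher and 1 lower with a sum of 1000000. Nfya, a subunit of the CCAAT-binding factor, rose from 12.4 to 17.7 (log2 fold change 0.48, adjusted p = 0.00012, limma), while its partner Nfyb had a negative change (-0.18, adjusted p = 0.027, limma) whose call was lost in 7 of 17 settings, both sums included (adjusted p = 0.6 and 0.46). Atf1 fell from 61.7 to 48.9 (-0.33). Rela, a subunit of NF-kappa B, had means of 29.6 and 26.2 (-0.17, adjusted p = 0.02, limma), with the call lost in 6 of 17 settings, both sums included (adjusted p = 0.65 and 0.47). Rfx5, the DNA-binding subunit of the RFX complex, had means of 7.93 and 8.81 and was not called.

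In interferon signalling, which induces the pathway, 4 of 12 genes tested were called higher and 6 lower, beside 29.3% and 31.3% over all genes tested. Ifngr1, the ligand-binding chain of the interferon gamma receptor, had values of 124, 135 and 135 in WT-labelled libraries and 84.1, 88.7 and 88.4 in KO-labelled ones (log2 fold change -0.59, adjusted p = 3.6e-05, limma). Ifngr2 fell from 18.5 to 12.4 (-0.55), Jak1 from 71.0 to 53.6 (-0.40) and Jak2 from 19.2 to 15.2 (-0.32). Ifnar2 fell from 42.8 to 35.6, a call lost with a sum of 1000000 (adjusted p = 0.072, limma). Tyk2 was the kinase that rose, from 15.2 to 21.1 (0.45). Stat2 rose from 3.49 to 6.68 (0.77, adjusted p = 4.1e-05, limma), Irf1 from 6.35 to 8.34 (0.35) and Irf9 from 15.3 to 17.8 (0.21). Socs1, an inhibitor of the JAK kinases that interferon induces, fell from 9.07 to 7.30 (-0.28). Ifng was listed at 0 in 5 of 6 libraries.

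MHC class II genes, which have their own transactivator, were taken as a contrast. Of 6 tested, 5 were called lower and none higher, also under both sums and quantile normalization, beside 31.3% lower over all genes tested. H2-DMb1 fell from 19.1 to 8.85 (log2 fold change -1.03, adjusted p = 3.2e-06, limma), the invariant chain gene Cd74 from 21.4 to 10.6 (-0.95), H2-Aa from 10.8 to 5.50 (-0.86) and H2-Eb1 from 6.39 to 3.17 (-0.82). Ciita, the class II transactivator and a relative of Nlrc5, was below 1 in every library. The macrophage markers, which moved the same way, are given above, and their part in the class II values was not tested. The class I and class II differences were not tested against each other.

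**Figure D4:**
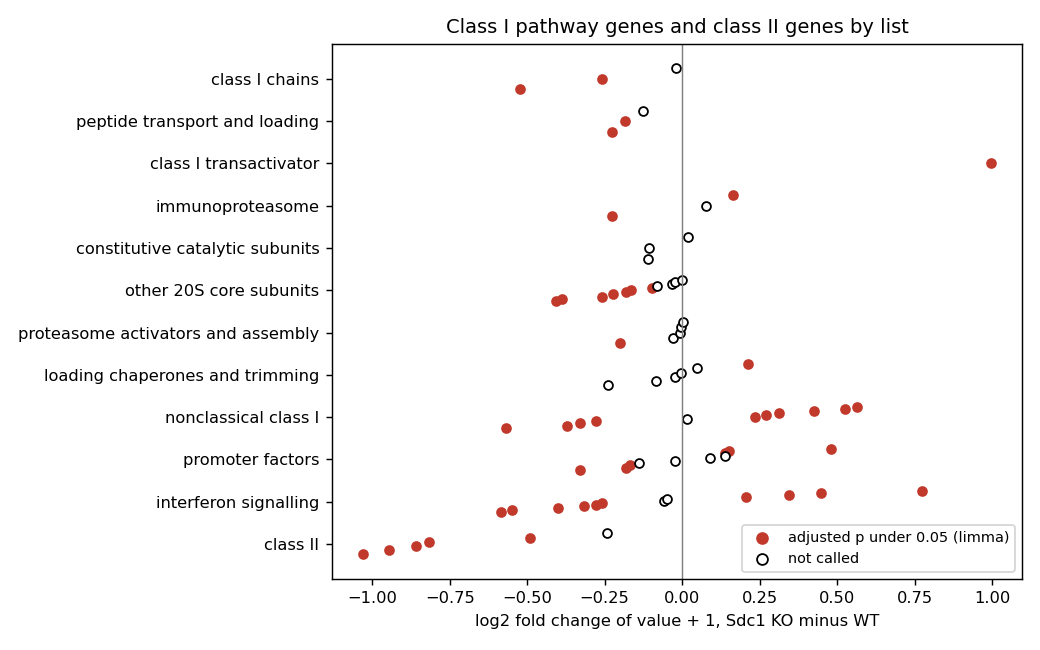
Log2 fold change (horizontal axis, KO-labelled minus WT-labelled libraries) of each tested gene of the class I pathway lists and of the class II list, with filled points for genes called by limma and open points for the others. The class I transactivator Nlrc5 lies at 1.00, apart from the class I chains between -0.52 and -0.02, and 5 of 6 class II genes lie between -1.03 and -0.49.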

How the data were processed

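RNA from Lin- bcCML cells was sequenced in 6 libraries, 3 per label, after a stranded mRNA preparation with single-end reads. The authors quantified transcripts with kallisto and summed them per gene with sleuth 0.30.0 (the submitters' processing notes name mm10). The deposited values are a signal on the TPM scale that the authors rescaled between libraries, as library sums of TPM would otherwise be equal. Versions of kallisto and of the annotation are not given in the sources used here. The deposited fold changes and p-values of the authors' own comparison were not used.

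The 10 class I genes and all gene lists were chosen with earlier results of these data known. Symbols were matched for 35454 of 36083 gene IDs, and 11369 genes were at 0 in all libraries. Genes with a mean of at least 1 (12155) were tested on log2(value + 1) with limma 3.58.1 in R 4.3.3, with group as the only term, an intensity-dependent variance trend and Benjamini-Hochberg adjustment at 0.05. The design had expected plain TPM, and the same test was kept. Single ratios were tested by exact permutation of libraries (scipy 1.17.1). The fit was tested on simulated data. Beside the 10 genes, up to 4 called genes of each list with the largest change were named, with members that moved the other way, and the 5 genes most like Nlrc5. Other list genes named (Psmb5, Psmb6, Psmb7, Psme1, Psme2, Erap1, Calr, Pdia3, Tapbpl, Hspa5, H2-T23, H2-Q4, H2-Q6, Rfx5, Ifnar2, Jak1, Jak2, Irf1, Irf9, Socs1 and Ciita) were chosen after their values were seen. A listed gene is not reported here and was left out of the list counts. Alternatives covered pseudocount, filter, scaling, variance trend, replicate block and leaving out each library. Coordinates are from GENCODE M21 (GRCm38), promoters from RefSeq (GRCm38.p6).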

Additional observations from a re-analysis of the deposited data

How the results depend on the processing

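Of 159 refits of the class I genes under the alternatives, 143 kept direction and side of the threshold, 7 lost a call, 4 gained one in the same direction, and 5 changed sign, 3 of them (H2-K1) with a call. H2-D1, Nlrc5 and Psmb10 kept direction and call in every setting that tested them. The number of class I genes called higher, 2 with the authors' scaling, was 4 with a sum of 1000000, 4 with quantile normalization and 4 with the sum without neutrophil and erythroid markers (chosen after seeing the data), and 1 with a minimum mean of 5, which drops Nlrc5. The number called lower went from 5 to 1 with a sum of 1000000. It was 4 with quantile normalization and 4 with the sum without neutrophil and erythroid markers. H2-K1 changed sign under a sum of 1000000 (0.127), quantile normalization (0.104) and the sum without neutrophil and erythroid markers (0.111), as did Tap2 under a sum of 1000000 (0.022) and the sum without those markers (0.006), Psmb5 under these settings (0.037, 0.003 and 0.021) and Psmb7 under both sums (0.041 and 0.025). These sums multiply all values of a library by a common factor. On the log2(value + 1) scale this moved abundant genes alike and rare ones less. With a sum of 1000000 H2-K1 went from -0.021 to 0.127, and Nlrc5 from 0.997 to 1.096. The log2 difference of the immunosubunit ratio, 0.103, was 0.071 as a mean of log2 values, and the cause was not tested. Over all genes 7374 were called, 6475 to 6962 with 1 library left out, 8022 of 24714 with no minimum mean and 5907 of 8966 with a minimum mean of 5. Same-numbered libraries showed little shared deviation over all genes tested (r = 0.151, -0.00828 and 0.0185, against -0.157 to 0.142 for other pairs). With a replicate block the SE of B2m went from 0.044 to 0.023, while that of Nlrc5 stayed at 0.066. Whether the numbers pair the libraries is thus not settled. The replicate block gave 7624 calls, with 2 class I genes higher and 5 lower, and Psmb5 called lower (-0.111, adjusted p = 0.026, limma). Depth is unknown, so counting error at the level of Nlrc5 could not be estimated, and no test for an outlying library was made with 3 per group.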
